A study of Rattus norvegicus with 35 samples.

Results

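Mitosis and chromosome segregation genes are the genes whose products condense, attach, check and separate the chromosomes of a dividing cell and then divide the cell itself. A list of 38 such genes was followed on whole rat genome arrays. A gene was taken as measured when a probe carried its symbol, ignoring case and a trailing mark for predicted genes, or when the probe's description gave the symbol in brackets. By this rule 31 of the 38 genes had a probe (42 probes), out of 35581 different gene names on the array. A further 3 were found only through a transcript accession in the reference table of rat genes (Cdk1 under the name Cdc2a, Aurka as Stk6 and Nuf2 as Cdca1), and 2 more only through an older symbol on the same chromosome (Ndc80 as Kntc2 and Cenpa under a provisional name). Cdca3, which takes part in the degradation of an inhibitor of mitotic entry, and Anln, an actin-binding protein of the cleavage furrow, were not matched to a probe. Overall counts are over the 31 genes of the rule, and the steps of mitosis are described over all 36 genes with a probe.

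The study asked how RNA levels in the olfactory epithelium of Brown Norway rats vary between individuals and with age. The groups used here are 19 newborn pups aged 3 to 5 days, with 4 in litter L1 and 5 in each of litters L2, L3 and L4, then 4 adult males aged 9 weeks and 4 old males aged 22 months. RNA came from 1 side of the nose of each pup and from both sides of each adult and old rat, which gave 35 arrays from 27 rats. The sex of the pups is not given, and each litter came with its own mother. The animals are untreated, the old rats had been housed on site from 3 weeks of age, and each sample is whole dissected tissue.

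As background, entry into mitosis is driven by the kinase Cdk1 bound to cyclin B, and a surveillance system at the kinetochores holds cells in metaphase until every chromosome is attached to the spindle. The anaphase-promoting complex then marks securin and cyclin B for destruction, which frees separase to open the cohesin rings and lets the cell leave mitosis. The olfactory epithelium is known for producing neurons throughout life from dividing basal cells, and in the newborn it still grows.

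A level here is the log2 of the background-subtracted intensity of a probe over the median of its array. Levels of different probes are not read as amounts of RNA relative to each other, because probes differ in brightness for the same amount of RNA. The array medians lay between 46.0 and 96.5 intensity units for newborn, 88.7 and 179 for adult and 40.2 and 59.8 for old rats. Of the 31 genes, 25 were well above background on all 35 arrays, while Cdc25c, Cenpe and Nusap1 were so on no array of the old rats. Adult arrays were scanned on days of their own, the old rats shared a scan day with L1 only, and L2, L3 and L4 were scanned last, so that age and scan day cannot be told apart for adult rats. The software that gave the intensities was release 9.5.1.1 for the adult arrays and 9.5.3.1 for all others. Age and software release therefore cannot be told apart for adult rats either.

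Most of the genes had more RNA in newborn than in adult rats. A difference counted as called at an adjusted p under 0.01, with p adjusted over all probes. The test called 29 of the 31 genes higher in newborn rats, against 26.8% of all probes. It called 0 lower (limma, and also 0 at an unadjusted p under 0.05), against 19.6% of probes. With a fold of at least 5 for the probe used the count was 15, against 2.23% of probes. In 28 of the 31 genes every pup was above every adult rat, which held for 15.9% of probes. The median of the 31 log2 differences was 2.27, against 0.10 for all probes. The count was 32 of 34 with the genes found by accession and 34 of 36 with those found by an older symbol. In both larger sets the genes not called were Aurkb and Cenpe. Nusap1, which is counted as called higher, was well above background on 1 newborn and 1 adult array only.

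Against old rats, which are compared with the same pups, 29 of 31 genes were higher in newborn rats, with 20.0% of all probes called higher. One of the 29 is Cenpe, which was well above background on no array, and 28 were so in at least 1 of the 2 groups. Nusap1 is among the 28 through 1 newborn array only. Of the 29, 23 had a fitted fold of at least 5, against 2.90% of probes, or 21 without Cdc25c and Nusap1, whose old arrays were not well above background. In 26 the pups did not overlap the old rats, against 10.3%. The median log2 difference was 3.11, while that of all probes was -0.045. Aurkb and Kif2c were not called. Both shares are far above those of the array as a whole. Fewer dividing cells and less RNA per cell cannot be told apart in such tissue.

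Adult and old rats were closer to each other. The test called 16 of 31 genes higher in adult rats, against 11.4% of all probes, and 3 genes lower, against 20.5%. The remaining 12 were not called. With the probe used for each gene none of the 31 reached a fold of 5, against 1.16% of probes. The largest fold was 3.23 for Kif11, which was well above background on 1 of 8 old arrays, and among probes well above background on all 35 arrays a second probe of Top2a gave 3.62. The share called higher is above that of the array and the share called lower is below it. Adult and old rats did not overlap in 22 genes, in either direction, against 15.8% of probes with adult rats higher and 28.1% with adult rats lower. All probes together shifted by -0.14 between adult and old rats, so that the median difference of the genes, 0.69, was 0.83 relative to that shift. Relative to all probes it was 0.64 with the 75th percentile and 0.44 with normexp, another background correction, which was always followed by quantile normalization. The share of probes called higher among all calls depended on the scaling, with 35.7% for the array median, 42.9% for the 75th percentile, 52.0% for quantile normalization, and normexp with quantile normalization called 6353 probes higher and 6363 lower. For newborn against adult rats this share was 57.8% with the array median, 48.2% with the 75th percentile, 46.8% with quantile normalization and 45.8% with normexp and quantile normalization together. The genes' own median difference between newborn and adult rats, relative to all probes, lay between 1.77 with both of these and 2.21 with a higher floor on dim signals.

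**Figure D1:**
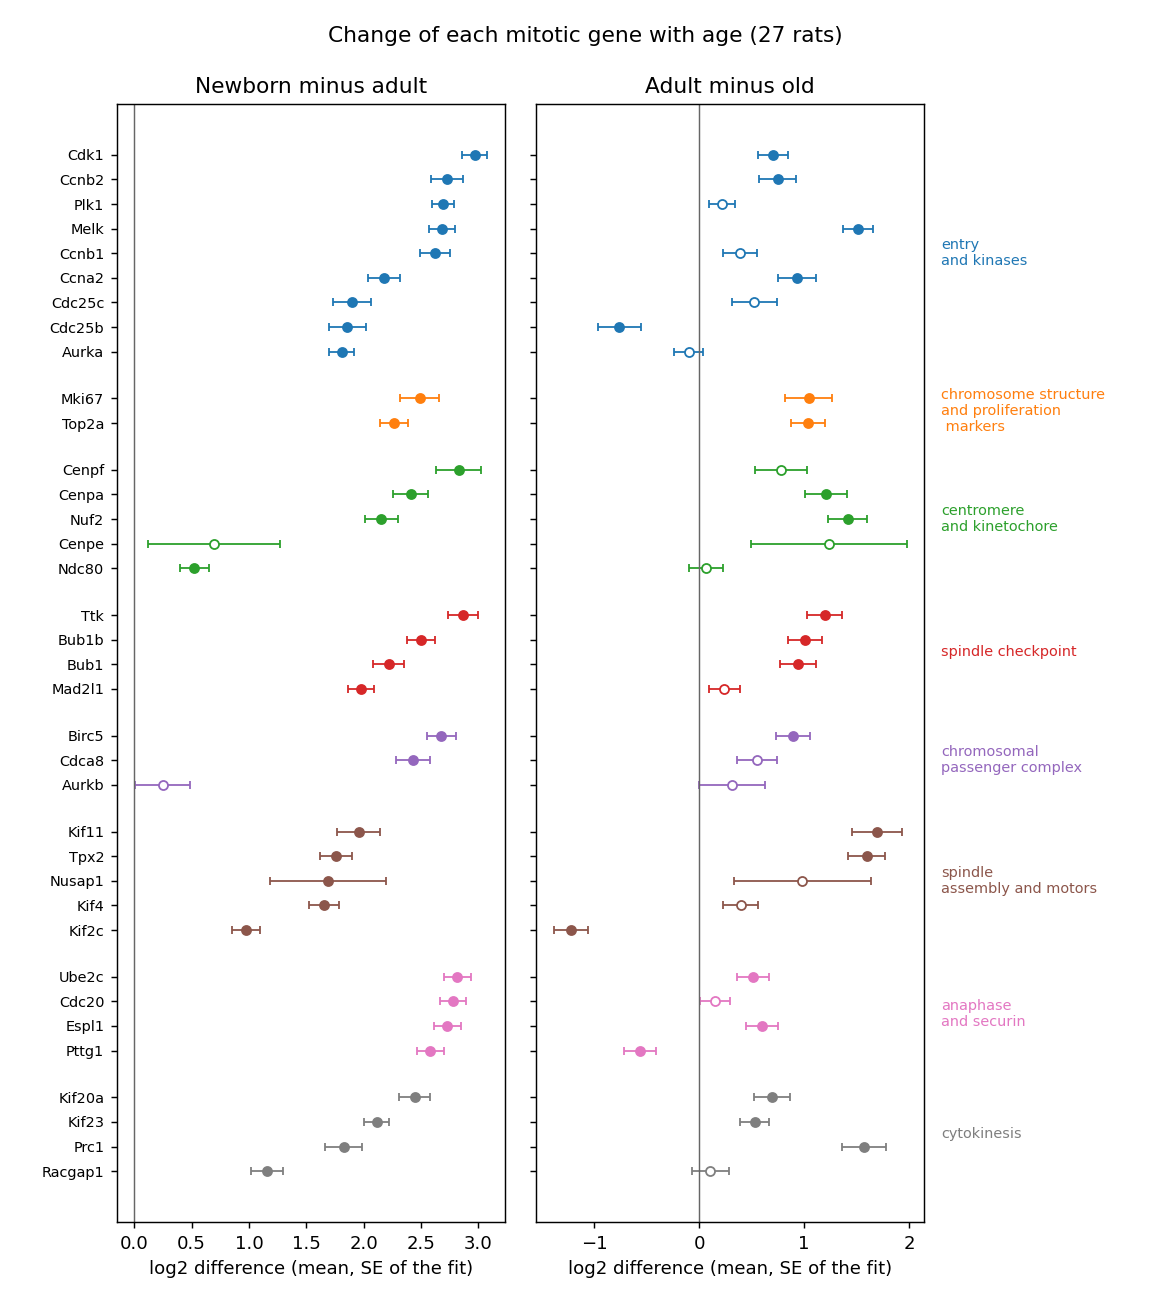
Log2 difference of 36 mitotic genes between newborn and adult rats on the left and between adult and old rats on the right, from 19 pups, 4 adult and 4 old rats, with bars for the SE of the fit. Filled points have an adjusted p under 0.01. Cdk1 lies furthest right in the left panel at 2.97, Aurkb lies near 0 at 0.25 and is negative under quantile normalization with and without normexp, and Kif2c, Cdc25b and Pttg1 are the filled points left of 0 in the right panel.

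The genes of mitotic entry rose together in the newborn. All 9 genes with a probe, of 10 named, were called higher than in adult rats, by log2 differences, with the probe used for each gene, between 1.81 for Aurka, a kinase of centrosome maturation, and 2.97 for Cdk1. The level of Cdk1, the kinase that starts mitosis, ran from 7.25 to 8.24 over the 19 pups with a median of 7.81, was 4.71, 4.72, 4.96 and 4.96 in the 4 adult rats and 4.19, 3.93, 4.15 and 4.26 in the 4 old rats. The age groups did not overlap, and the old rats lay below the adult rats. Newborn rats were 7.82-fold above adult rats (log2 difference 2.97 ± 0.11, SE, adjusted p 1.22e-15) and 12.7-fold above old rats, and adult rats were 1.63-fold above old rats (adjusted p 0.000389). For Ccnb1, the cyclin that activates it, the level had a median of 5.82 in the pups (lowest 5.37, highest 6.16) and was 3.21, 3.11, 3.21 and 3.18 in the adult rats and 2.73, 2.67, 2.72 and 3.02 in the old rats. Every pup was above every older rat by a wide margin, and adult rats were above old rats in each case, but with a difference of 0.39 ± 0.16 that was not called (adjusted p 0.0576). A second probe of Ccnb1, which was well above background on all 35 arrays, gave 1.06 for that difference (adjusted p 0.000244). Between newborn and adult rats the second probe gave 1.48, or 2.79-fold, against 2.62, or 6.15-fold, for the first. The first probe was called too with the 75th percentile (0.48) and with quantile normalization (0.50).

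Melk, a kinase of dividing progenitor cells, had the largest change against old rats among the genes, with the probe used for each gene. Its level lay between 3.30 and 4.41 in the pups (median 3.84), at 1.05, 1.04, 1.22 and 1.28 in the adult and at -0.48, -0.41, -0.23 and -0.34 in the old rats. All 3 ages were apart, with newborn rats 6.41-fold above adult rats and 18.3-fold above old rats, and adult rats 2.86-fold above old rats (1.51 ± 0.14, adjusted p 2.1e-08). Among the other genes of this step, Ccna2 and Ccnb2, further mitotic cyclins, and Plk1, a kinase active from centrosome maturation to cytokinesis, showed 4.53-fold, 6.62-fold and 6.46-fold more RNA in newborn than in adult rats. Ccna2 and Ccnb2 also fell from adult to old rats, by 1.91-fold and 1.68-fold. Second probes of Ccna2 and Plk1 gave 2.61-fold and 4.08-fold between newborn and adult rats. That of Ccna2 was well above background on no old array. It gave at least 4.33-fold between newborn and old rats and at least 1.66-fold for adult over old rats. For Plk1 the probe used gave 0.22 between adult and old rats (adjusted p 0.175) and its second probe gave 1.09 (adjusted p 1.02e-06).

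The phosphatases that switch Cdk1 on were both higher in newborn than in older rats. Cdc25c was 3.74-fold higher in newborn than in adult rats. Against old rats, where it was above background on no array, newborn rats were at least 3.81-fold higher, and adult against old rats was not called (adjusted p 0.0538). Cdc25b, which acts earliest of these enzymes, is named here after its values were seen, as the remaining one of the 3 genes lower in adult rats. Its level ran from 3.67 to 5.16 over the 19 pups with a median of 4.43, was 2.72, 2.24, 2.52 and 2.59 in the 4 adult rats and 3.09, 3.86, 3.06 and 3.1 in the 4 old rats. No adult rat reached any old rat, and the old rat with 3.86 stood above the lowest pup. Newborn rats were 3.62-fold above adult rats, and adult minus old rats gave -0.76 ± 0.21 (adjusted p 0.00456), or -0.62 relative to all probes. This last call was lost with the 75th percentile (-0.67) and with quantile normalization (-0.66). It was lost too with slide or scan day as a random block, where the difference stayed at -0.76. Both of these fits took each array singly, with no term for the rat. The call was also lost without any single one of adult rats 14 and 15 and old rat 18 (-0.76 to -0.56), the old rat with 3.86.

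Both genes of chromosome structure and proliferation marked the ages in order. Top2a, the enzyme that untangles sister chromatids, had a level that ran from 5.05 to 5.96 over the 19 pups with a median of 5.47, was 3.09, 3.07, 3.47 and 3.34 in the 4 adult rats and 2.18, 2.06, 2.21 and 2.39 in the 4 old rats. Newborn rats were 4.81-fold above adult rats (2.26 ± 0.12, adjusted p 3.71e-13) and 9.85-fold above old rats, and adult rats were 2.05-fold above old rats (adjusted p 1.33e-05), or 3.62-fold with its second probe. Mki67, which coats mitotic chromosomes and is the usual marker of proliferating cells, had a level that lay between 2.95 and 4.0 in the pups (median 3.32), at 0.83, 0.76, 1.30 and 0.96 in the adult and at 0.04, -0.11, -0.18 and -0.06 in the old rats. The 3 ages did not overlap for either gene. The folds of Mki67 were 5.61 between newborn and adult rats, 11.5 between newborn and old rats and 2.06 for adult over old rats (log2 1.04 ± 0.22, adjusted p 0.000538), a difference that was 0.49 and not called with normexp and quantile normalization together.

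At the centromere and kinetochore, 4 of 5 genes were called higher in newborn than in adult rats. The same 4 were higher than in old rats, while the remaining one, Cenpe, was not measured well enough to count. Nuf2, a subunit of the complex that grips microtubules, had a level that ran from 4.44 to 5.63 over the 19 pups with a median of 5.09, was 2.68, 2.64, 3.26 and 3.03 in the 4 adult rats and 1.56, 1.39, 1.44 and 1.58 in the 4 old rats. The ages were again apart, with folds of 4.45 between newborn and adult, 11.9 between newborn and old and 2.66 for adult over old rats (log2 1.41 ± 0.19, adjusted p 1.8e-06). Cenpa, the histone variant that marks the centromere, was 5.31-fold higher in newborn than in adult rats and 2.31-fold higher in adult than in old rats, where 4 of 8 arrays were well above background. Cenpf, a large protein of the outer kinetochore, was 7.11-fold higher in newborn than in adult rats with its probe and 1.94-fold with its second probe, which was well above background on all 35 arrays. Between adult and old rats the first gave 0.78 (adjusted p 0.015) and the second 1.81 (adjusted p 3.74e-07).

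Ndc80, which binds microtubules in the same complex as Nuf2, changed least of the called genes. Its level had a median of 5.33 in the pups (lowest 4.83, highest 5.61) and was 4.90, 4.56, 5.00 and 4.47 in the adult rats and 4.41, 4.75, 4.70 and 4.81 in the old rats. The pups overlapped the adult rats, and adult and old rats overlapped each other. The difference between newborn and adult rats was 0.52 ± 0.13 (adjusted p 0.0012), and was not called with quantile normalization (0.21), with normexp added to it (-0.0012) or without adult rat 16 (0.44). Against old rats it was 0.59 ± 0.13 (adjusted p 0.00043). Adult and old rats differed by 0.07 ± 0.16 (adjusted p 0.802), which was called at 0.56 with normexp and quantile normalization together and ranged from -0.0246 to 0.15 with a rat left out, negative without adult rat 15 or old rat 17. Nuf2 and Ndc80 act in 1 complex, and their RNA differences between newborn and adult rats were 2.15 and 0.52. The difference between these 2 changes was not tested.

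Cenpe, a kinetochore motor that moves chromosomes to the spindle equator, could not be measured with its probe. It was well above background on 0 of 35 arrays. Its level lay between -6.64 and -2.44 in the pups (median -3.96), at -4.70, -4.58, -4.93 and -5.95 in the adult and at -6.64, -5.87, -5.94 and -6.64 in the old rats, values at which the signal did not stand above background. No fold is given, and the adjusted p values of 0.331 against adult and 0.00694 against old rats rest on such signals. The call against old rats was lost without any single one of L1 rats 10 and 11 and old rats 17 to 20, at log2 differences of 1.81 to 2.06. It was also lost with scan day as a random block (1.79). The change against old rats was 0.16 with the 75th percentile, 0.12 with normexp and quantile normalization together and -0.16 with a higher floor on dim signals.

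All 4 genes of the spindle checkpoint were called higher in the pups than at either older age. Bub1b, which restrains the anaphase-promoting complex until chromosomes are attached, had a level that lay between 4.44 and 5.22 in the pups (median 4.85), at 2.31, 2.3, 2.41 and 2.37 in the adult and at 1.38, 1.29, 1.26 and 1.43 in the old rats. Newborn rats were 5.66-fold above adult rats and 11.4-fold above old rats, and adult rats were 2.01-fold above old rats (1.01 ± 0.16, adjusted p 2.33e-05). Another probe of Bub1b gave 2.58 between newborn and adult rats, while the remaining one, above background on 1 array, gave -0.76 with an adjusted p of 0.356. With the mean of these probes the change between adult and old rats was 0.84 and not called.

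Ttk, the kinase that starts the checkpoint signal, had a level that ran from 3.52 to 4.79 over the 19 pups with a median of 4.37, was 1.22, 1.25, 1.67 and 1.55 in the 4 adult rats and 0.15, 0.02, 0.28 and 0.46 in the 4 old rats. The ages did not overlap, and the largest of the checkpoint changes was that of Ttk, 7.3-fold between newborn and adult rats (2.87 ± 0.13, adjusted p 2.12e-14) and 16.7-fold between newborn and old rats. Adult rats were 2.29-fold above old rats with this probe, and the second probe of Ttk gave 0.51 with an adjusted p of 0.024, and 12.1-fold between newborn and adult rats. Bub1, a kinase that gathers the checkpoint proteins, was 4.66-fold higher in newborn than in adult rats and 1.92-fold higher in adult than in old rats. Mad2l1, which binds and blocks Cdc20, was 3.94-fold higher in newborn than in adult rats. Its difference between adult and old rats was 0.24 ± 0.15 and was not called (adjusted p 0.2).

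The chromosomal passenger complex corrects faulty attachments and later guides cytokinesis, and its genes parted. Birc5, the survivin subunit, was 6.40-fold higher in newborn than in adult rats and 1.86-fold higher in adult than in old rats. Cdca8, the borealin subunit, was 5.39-fold higher in newborn than in adult rats, and its 0.55 between adult and old rats, where 2 of 8 old arrays were well above background, was not called (adjusted p 0.0221). Aurkb, the kinase of the complex, was well above background on all arrays, and its level lay between 5.26 and 6.70 in the pups (median 5.99), at 5.06, 5.56, 5.85 and 6.54 in the adult and at 5.54, 5.33, 5.51 and 5.36 in the old rats. The 3 ages overlapped, and the spread within the adult rats, with an SD of 0.61, was larger than the difference to newborn rats. That difference was 0.25 ± 0.24 (95% interval -0.26 to 0.75, adjusted p 0.42), and it was -0.15 with quantile normalization and -0.08 with normexp added to it. It ranged from 0.018 to 0.51 with a rat left out. Pups were 0.56 ± 0.24 above old rats (adjusted p 0.0574), and adult rats 0.31 ± 0.31 above old rats (adjusted p 0.465). The difference between adult and old rats ranged from 0.05 to 0.54 with a rat left out.

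Aurkb therefore did not pass the test in any comparison of ages, and its interval between newborn and adult rats ends at 0.75, under the changes of Birc5 (2.68) and Cdca8 (2.43). Its interval was 0.06 to 1.06 against old rats. Between adult and old rats it was -0.33 to 0.96, which holds the changes of Birc5 (0.89) and Cdca8 (0.55). Its single probe is printed because the exception rests on it. The probe lies at chr10:55815016-55815157 on the plus strand in build rn3, a span longer than the probe.
Aurkb: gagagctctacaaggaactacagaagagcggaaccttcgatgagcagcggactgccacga

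Among the genes of spindle assembly and motors, 5 of 5 were called higher in newborn than in adult rats, none of them 5-fold. Tpx2, which brings Aurora A to the spindle, had a level that ran from 3.04 to 3.88 over the 19 pups with a median of 3.37, was 1.71, 1.55, 1.77 and 1.58 in the 4 adult rats and 0.11, -0.0076, -0.0044 and 0.13 in the 4 old rats. Adult rats stood between the other ages without overlap, 3.39-fold below newborn rats and 3.02-fold above old rats (1.59 ± 0.17, adjusted p 1.48e-07). Kif11, the motor that pushes the spindle poles apart, had a level that lay between 0.23 and 1.53 in the pups (median 0.92), at -1.11, -1.28, -0.63 and -1.0 in the adult and at -2.38, -2.86, -3.16 and -2.40 in the old rats. All 3 ages were apart. With the probe used for each gene, Kif11 had the largest change between adult and old rats, 1.69 ± 0.24 (adjusted p 5.32e-06), although only 1 of 8 old arrays was well above background. The second probe of Kif11, above background on 4 arrays, gave 1.09 for it with an adjusted p of 0.363. The change was not called with the mean of both probes (1.39) or with normexp and quantile normalization together (0.39). Newborn rats were 3.88-fold above adult rats and 12.5-fold above old rats. Kif4, a motor of chromosome arms and the midzone, was 3.14-fold higher in newborn than in adult rats, with 0.39 between adult and old rats (adjusted p 0.0676). Nusap1, which bundles spindle microtubules, was called higher in newborn rats against both older ages. Its signal was above background on 1 newborn and 1 adult array only and on 1 adult array was left out as an outlier, so no fold is given.

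Kif2c, a motor that takes microtubules apart at the centromere to correct attachments, departed from the other genes. Its level lay between 3.59 and 4.55 in the pups (median 4.07), at 3.16, 3.16, 3.25 and 3.06 in the adult and at 4.27, 4.37, 4.30 and 4.59 in the old rats. The adult rats lay below every other rat, and the old rats lay around the upper end of the pups' range. Newborn rats were 1.96-fold above adult rats (0.97 ± 0.13, adjusted p 5.37e-07), but their difference to old rats was -0.25 ± 0.13 (95% interval -0.51 to 0.01, adjusted p 0.107). Between adult and old rats the difference was -1.22 ± 0.16 (adjusted p 2.08e-06), or -1.08 relative to all probes. The probe of Kif2c lies at chr5:137483341-137486193 on the minus strand in build rn3, again over a span longer than the probe, and is printed because a single probe carries this exception.
Kif2c: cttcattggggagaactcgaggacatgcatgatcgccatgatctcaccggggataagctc

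The genes of anaphase rose by similar amounts in the newborn. All 4 had a fold of at least 5 against adult rats, with log2 differences between 2.58 and 2.82. Ube2c, the enzyme that loads ubiquitin for the anaphase-promoting complex, was 7.04-fold higher in newborn than in adult rats and 1.43-fold higher in adult than in old rats. Cdc20, which activates that complex, was 6.86-fold higher in newborn than in adult rats, and adult minus old rats gave 0.15 ± 0.14 (adjusted p 0.443). Espl1, the separase that cuts cohesin, was 6.62-fold higher in newborn than in adult rats and 1.51-fold higher in adult than in old rats.

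Pttg1, the securin that holds separase inactive, had a level that lay between 7.44 and 8.53 in the pups (median 8.14), at 5.63, 5.38, 5.59 and 5.46 in the adult and at 5.91, 6.09, 6.12 and 6.18 in the old rats. The ages did not overlap, and here the adult rats were the lowest. Newborn rats were 5.98-fold above adult rats (2.58 ± 0.12, adjusted p 2.46e-14) and 4.05-fold above old rats. Adult minus old rats gave -0.56 ± 0.15 (adjusted p 0.00468), or -0.42 relative to all probes. The change of Pttg1 was -0.16 with quantile normalization and -0.22 with normexp added to it, not called in either, and the call was also lost without any single one of adult rats 14 and 16 and old rats 18, 19 and 20 (-0.56 to -0.51). Separase and its inhibitor thus had opposite signs between adult and old rats, with 0.60 for Espl1 and -0.56 for Pttg1. The count of genes lower in adult rats, 3, was 1 with quantile normalization, 1 without adult rat 14 and 1 without old rat 18.

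In cytokinesis, all 4 genes with a probe, of 5 named, were called higher in newborn than in adult rats. Kif20a, the motor that carries the passenger complex to the midzone, had a level that ran from 5.31 to 6.19 over the 19 pups with a median of 5.76, was 3.34, 3.28, 3.41 and 3.32 in the 4 adult rats and 2.66, 2.48, 2.53 and 2.90 in the 4 old rats. Its ages were apart, with folds of 5.44 between newborn and adult, 8.80 between newborn and old and 1.62 for adult over old rats (log2 0.69 ± 0.17, adjusted p 0.00204). Prc1, which cross-links the microtubules of the midzone, had a level that lay between 1.40 and 2.29 in the pups (median 1.77), at -0.21, -0.32, 0.22 and 0.13 in the adult and at -1.77, -1.84, -1.76 and -1.09 in the old rats. Old rat 20 was the highest of its group and still below every adult rat. The folds of Prc1 were 3.55 between newborn and adult rats, 10.5 between newborn and old rats and 2.96 for adult over old rats (log2 1.57 ± 0.21, adjusted p 2.18e-06). Kif23 and Racgap1, partners in the complex that sets the cleavage plane, were 4.32-fold and 2.23-fold higher in newborn than in adult rats. A further probe of Racgap1 gave 1.45-fold, with pups overlapping adult rats. Between adult and old rats Kif23 gave 0.53 (adjusted p 0.00313) and Racgap1 0.11 (adjusted p 0.688), with 0.73 for that further probe (adjusted p 0.0018).

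**Figure D2:**
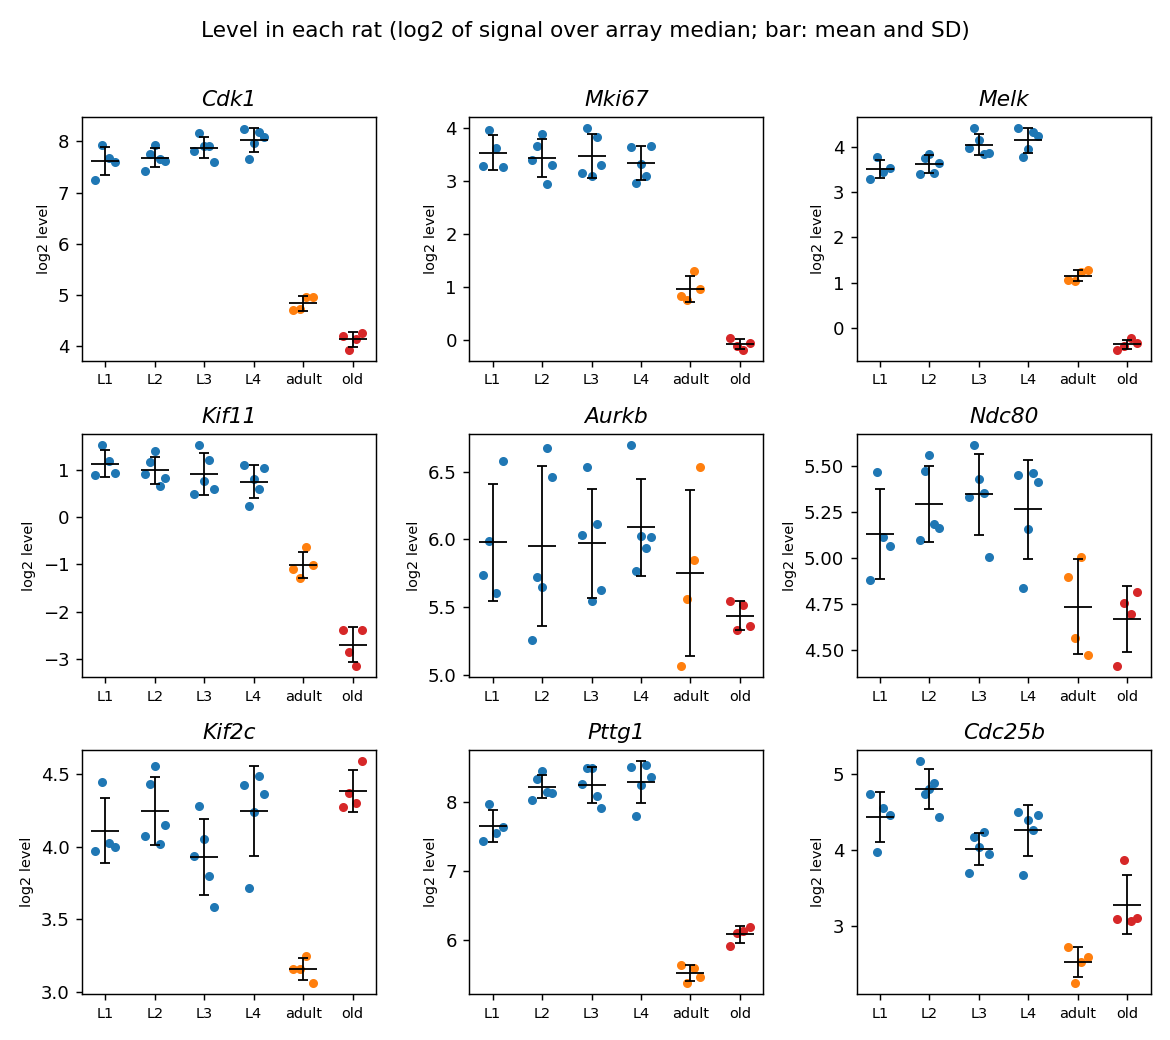
Level in each rat (log2 of signal over array median, 1 point per rat, bars for mean and SD) of 9 mitotic genes in litters L1 to L4 and in adult and old rats, on axes that differ between panels. Cdk1, Mki67, Melk and Kif11 step down from newborn to adult to old rats, Aurkb overlaps between all ages and Ndc80 between newborn and adult and between adult and old rats, both change sign between newborn and adult rats under at least 1 scaling, and Kif2c, Pttg1 and Cdc25b are lowest in the adult rats, with 3.06 to 3.25 for Kif2c.

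The pups of L1 and the old rats were scanned on the same day, so they were compared apart from the others. There, 27 of 31 genes were higher in L1, against 13.2% of all probes called higher, and 22 had a fitted fold of at least 5, against 3.12%, or 21 with the bound for Cdc25c, whose old arrays were not well above background. The first count was 27 as well with scan day as a fixed block and among rats of that day alone. All L1 and old rats share that day, so both fits keep the same differences and could change only the estimate of the spread. L1 and the old rats lay on different slides, so age and slide cannot be told apart here. The difference was 3.49 for Cdk1, 3.88 for Melk, 3.61 for Mki67 and 3.28 for Top2a. For Aurkb it was 0.54 ± 0.31 (adjusted p 0.179) and for Kif2c -0.27 ± 0.16 (adjusted p 0.198). The large differences between newborn and old rats were thus also present among arrays of 1 scan day.

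Litters differed in fewer genes. The test among the 4 litters called 5 of 31, against 21.6% of all probes, a share of the genes no larger than that of the array. They were Melk (adjusted p 0.00118), Ttk (0.00204), Cdca8 (0.00289), Pttg1 (0.00431) and Birc5 (0.00485). All 5 had their lowest mean in L1, with 3.75 ± 0.26 (SD, n = 4) for Ttk against 4.42, 4.49 and 4.50 in L2, L3 and L4, and 0.63 ± 0.28 for Cdca8 against 1.51, 1.32 and 1.36. For Pttg1 the means of L1, L2, L3 and L4 were 7.65, 8.21, 8.24 and 8.28, and for Birc5 3.42, 4.03, 4.06 and 4.02. Melk was 3.52 in L1 and 3.62 in L2, against 4.05 in L3 and 4.14 in L4. L1 was the only litter on its slide and scan day, so litter and scan day cannot be told apart. Without L1 rat 9 the count was 2, without rat 11 it was 2 and without rat 12 it was 1. Among L2, L3 and L4 alone, a comparison chosen after seeing the data, limma called 0 of 31 genes and 5.07% of all probes. At an unadjusted p under 0.05 were 2 of the genes, against 25.5% of probes. That last count was 3 with scan day as a fixed block (29.4% of probes) and 2 within the scan day that most of these pups share (24.4%). With slide as a random block 1 gene was called among the 4 litters, and with scan day as a random block 1 as well.

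The mean level of the 31 genes, given as a description, was 3.66 ± 0.25 (SD) over the 19 pups, 1.51 ± 0.11 over the 4 adult and 0.87 ± 0.06 over the 4 old rats. Pups lay between 3.30 and 4.05, adult rats between 1.41 and 1.65 and old rats between 0.82 and 0.96, so the ages did not overlap. By litter, L1 had a mean of 3.46, L2 of 3.73, L3 of 3.66 and L4 of 3.74. These means include Cenpe and Nusap1, well above background on 0 and 1 newborn arrays. Both were lowest in L1, at -5.61 for Cenpe and -5.19 for Nusap1. In the other litters Cenpe lay between -4.60 and -3.51 and Nusap1 between -3.85 and -2.99. The sides of a rat were close. Side A minus side B was -0.07, 0.26, -0.15 and 0.22 in adult rats 13 to 16 and 0.06, -0.13, 0.06 and 0.02 in old rats 17 to 20, less in size than the differences between the means of the ages.

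Other genes of the same processes were followed from lists of their own. Of 46 other mitotic genes with a probe, 36 were called higher and 1 lower in newborn than in adult rats (26.8% and 19.6% of all probes), with a median difference of 1.78. Against old rats 37 were higher (20.0% of probes), and 24 were higher and 3 lower in adult than in old rats (11.4% and 20.5%). Without genes well above background in neither of the groups compared, 35 were higher against old rats (not Cep55 and Depdc1) and 21 higher in adult than in old rats (not Ska3, Plk4 and Depdc1). Spc24, a partner of Ndc80 and Nuf2, was 9.01-fold higher in newborn than in adult rats (3.17 ± 0.10, adjusted p 9.46e-17), and Cenpt, which links centromere and kinetochore, was 7.60-fold higher. Oip5, which loads the centromeric histone, was above background on 9 newborn arrays and on 0 arrays of the older rats, at least 1.59-fold higher in newborn than in adult rats. Gtse1, which acts in spindle assembly, Kif14, Sgol2, Cep55 and Depdc1 were above background on no array. The 1 gene that was lower in newborn rats was Hmmr, a spindle protein named after its values were seen, at -1.97 ± 0.17 (adjusted p 1.27e-09), with mean levels of -0.40 for newborn, 1.57 for adult and -0.27 for old rats.

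Complexes that also work outside mitosis had smaller median differences between newborn and adult rats, 0.37 for condensin and 0.35 for cohesin. Between newborn and old rats these medians were 2.02 and 0.18. Of 7 condensin genes 4 were called higher and 1 lower in newborn than in adult rats, where 26.8% of all probes were higher and 19.6% lower. Ncapd2 was 2.23-fold higher and Ncapg2 differed by -1.08 ± 0.17 (adjusted p 7.8e-06), both subunits of rings that compact chromosomes. Ncapg was above background on 5 newborn arrays and Smc2 on 1, and on 0 arrays of older rats. Against old rats 4 condensin genes were higher and 2 lower (20.0% and 22.9% of probes), and 4 were higher and 2 lower in adult than in old rats (11.4% and 20.5%). Of the 4 higher in adult rats, Ncapg and Smc2 were above background in neither group, which leaves 2. The counts of lower condensin genes lie near the shares of probes. Of 8 cohesin genes 5 were higher and 3 lower. Pds5b, a regulator of cohesin, was 2.27-fold higher in newborn rats and Stag1, a subunit, 1.21-fold higher, while Smc3, a core subunit, and Nipbl, the cohesin loader, differed by -1.23 ± 0.09 and -1.02 ± 0.09. In the anaphase-promoting complex 10 of 11 genes were higher, but by small amounts, with a median difference of 0.47. Its subunits Anapc1, Anapc5 and Cdc27 were 2.40-fold, 2.07-fold and 1.82-fold higher, and Anapc4 was not called, at 0.05 ± 0.12 (adjusted p 0.757). Against old rats 3 cohesin genes and 7 of the anaphase-promoting complex were higher. Between adult and old rats 3 cohesin genes were higher and 2 lower in adult rats, and 4 genes of the anaphase-promoting complex were lower, against the same shares of probes, which the 2 lower cohesin genes lie near. Cdc20 and Ube2c, which work with that complex, thus differed by 2.78 and 2.82 between newborn and adult rats. The median of the 11 genes listed for the complex, among them its activator Fzr1, was 0.47, and this contrast was not tested.

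Of 7 transcription factors of late cell cycle genes, 5 were higher and 2 lower in newborn than in adult rats (26.8% and 19.6% of all probes), 4 were higher and 1 lower than in old rats (20.0% and 22.9%), and 2 were higher and 1 lower in adult than in old rats (11.4% and 20.5%). With 7 genes the counts lower, and those between adult and old rats, lie near the shares of probes. Foxm1, a driver of mitotic genes, was 4.73-fold higher (2.24 ± 0.11, adjusted p 4.28e-14) and differed by -0.06 ± 0.14 between adult and old rats (adjusted p 0.764). E2f1, a driver of the start of replication, was 3.63-fold higher in newborn than in adult rats and 1.73-fold higher in adult than in old rats. Lin54, the subunit of the DREAM complex that reads the CHR motif, was at least 1.41-fold higher in newborn than in adult rats, where it was above background on 0 of 8 arrays. Nfya, a subunit of the factor that binds CCAAT boxes, differed by -0.53 ± 0.08 between newborn and adult rats (adjusted p 4.38e-06).

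The promoters of the genes share letters that the choice of genes did not use. Promoter windows of 300 bases, from RefSeq in build GRCr8, were found for 32 of the 38 genes (33 windows, since Kif2c has 2). The CHR motif, written TTTGAA or TTCGAA and read on both strands, was in 69.7% of these windows and in 19.7% of the 33469 windows of all genes. The CCAAT box, on both strands, was in 69.7% against 37.5%, and both motifs together were in 54.5% (18 windows) against 7.95%. The motifs could overlap, as the end of TTTGAA may run into that of a CCAAT box. E2F motifs (TTTGGCGC, TTTCCCGC or TTTCGCGC, both strands) were in 3.03% against 1.72%. The windows of Kif2c, Melk, Bub1 and Aurka held neither CHR nor CCAAT, and Melk and Bub1 fell with age like most of the others. Aurkb, Tpx2, Ccna2, Kif4, Ube2c and Racgap1 are not in the table. Shown are the windows of 6 genes described above that moved together with age or carry an exception (Pttg1) and that hold both motifs, with CHR and CCAAT letters of either strand in capitals. They are Cdk1 (chr20:19265043-19265342, plus strand), Top2a (chr10:84473044-84473343, minus strand), Pttg1 (chr10:28406277-28406576, minus strand), Ttk (chr8:93634389-93634688, plus strand), Prc1 (chr1:143659231-143659530, plus strand) and Mki67 (chr1:199952544-199952843, minus strand). A match describes letters and is neither a binding site nor a cause.
Cdk1: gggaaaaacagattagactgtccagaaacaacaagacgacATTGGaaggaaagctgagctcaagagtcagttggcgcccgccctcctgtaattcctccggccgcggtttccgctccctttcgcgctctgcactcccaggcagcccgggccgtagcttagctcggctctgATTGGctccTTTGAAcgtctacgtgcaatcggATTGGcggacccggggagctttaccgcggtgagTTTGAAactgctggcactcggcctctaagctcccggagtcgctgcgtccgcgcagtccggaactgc
Top2a: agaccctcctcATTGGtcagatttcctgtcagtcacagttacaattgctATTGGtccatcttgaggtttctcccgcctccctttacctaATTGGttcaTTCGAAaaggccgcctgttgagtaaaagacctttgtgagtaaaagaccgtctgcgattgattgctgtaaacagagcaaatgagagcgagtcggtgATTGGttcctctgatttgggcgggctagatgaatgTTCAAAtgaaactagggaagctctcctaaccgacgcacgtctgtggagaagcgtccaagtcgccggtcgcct
Pttg1: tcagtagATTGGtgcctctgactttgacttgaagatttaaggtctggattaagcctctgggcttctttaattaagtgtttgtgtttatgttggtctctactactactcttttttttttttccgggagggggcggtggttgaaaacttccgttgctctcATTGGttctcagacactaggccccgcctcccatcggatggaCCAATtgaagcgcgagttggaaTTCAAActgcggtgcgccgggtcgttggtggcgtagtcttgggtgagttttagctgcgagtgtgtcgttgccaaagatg
Ttk: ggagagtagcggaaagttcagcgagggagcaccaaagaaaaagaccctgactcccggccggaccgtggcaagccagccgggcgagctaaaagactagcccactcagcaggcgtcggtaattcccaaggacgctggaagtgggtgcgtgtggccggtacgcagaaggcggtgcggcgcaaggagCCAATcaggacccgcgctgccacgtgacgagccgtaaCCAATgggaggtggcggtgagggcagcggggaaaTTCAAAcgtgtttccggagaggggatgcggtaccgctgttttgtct
Prc1: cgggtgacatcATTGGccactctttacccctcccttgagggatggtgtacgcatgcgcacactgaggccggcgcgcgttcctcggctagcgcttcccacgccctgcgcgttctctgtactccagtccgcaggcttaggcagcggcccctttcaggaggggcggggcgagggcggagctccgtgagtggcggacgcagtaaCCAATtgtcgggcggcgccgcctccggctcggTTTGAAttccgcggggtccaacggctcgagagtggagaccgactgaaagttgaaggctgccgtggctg
Mki67: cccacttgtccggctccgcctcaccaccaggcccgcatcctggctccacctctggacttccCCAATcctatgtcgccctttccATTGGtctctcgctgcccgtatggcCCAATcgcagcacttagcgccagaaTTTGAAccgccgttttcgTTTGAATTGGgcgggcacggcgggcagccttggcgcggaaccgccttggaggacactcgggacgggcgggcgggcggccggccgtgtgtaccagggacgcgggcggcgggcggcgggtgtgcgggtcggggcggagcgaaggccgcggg

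Markers of the cell types in the tissue moved with age as well, in comparisons where 26.8% of all probes were called higher and 19.6% lower in newborn than in adult rats. All 6 immature neuron genes with a probe rose in the pups relative to adult rats, and their summed level was 1400 to 2820 in pups, 870 to 1260 in adult and 812 to 1030 in old rats. Such a sum adds levels not on the log2 scale and follows the brightest probe of its list, that of Gng8 in pups here, so it is read between rats and not between genes. Of 6 globose basal cell genes, the dividing progenitors, 4 were higher and 1 lower, with sums of 81.1 to 168, 63.2 to 76.6 and 101 to 109 and Sox2 as the brightest. Mean levels of Neurog1 were 3.87 for newborn, 2.17 for adult and 1.22 for old rats. Those of Sox2, which weighs most in the sum, were 6.29, 5.71 and 6.53, so the sum is not read as an amount of dividing progenitors. Of 4 horizontal basal cell genes, 0 were called either way (limma, and also 0 at an unadjusted p under 0.05), with sums of 49.0 to 457, 74.1 to 87.4 and 114 to 136 and Krt5 the brightest in pups. All 6 genes of mature sensory neurons were lower in newborn rats, with sums of 991 to 2000, 3520 to 4430 and 6860 to 8290 and Omp the brightest, and all 5 of sustentacular cells were lower, with sums of 529 to 1370, 2200 to 2600 and 3130 to 3670 and Cyp2a3 the brightest. All markers with a probe of these 5 cell types were well above background on some array of each age, and Gng13 had no probe.

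Genes of cells outside the epithelium moved too. Red cell genes were higher in the pups than in adult rats in 6 of 7 and lower in 1, with sums of 235 to 1070 in pups, 33.4 to 52.2 in adult and 107 to 240 in old rats and Alas2 the brightest. All 6 skeletal muscle genes were higher, with sums of 14.5 to 385, 1.05 to 2.12 and 0.591 to 1.02 and Myh3 the brightest in pups. Cartilage and bone genes were higher in 3 of 8 and lower in 1 against adult rats, near the shares of all probes (26.8% and 19.6%), and higher in 7 of 8 against old rats (20.0% of probes), with sums of 715 to 2270, 704 to 1260 and 279 to 473 and Bglap the brightest. Endothelial genes were higher in 3 of 4, with sums of 23.3 to 72.4, 12.5 to 14.0 and 9.33 to 11.9 and Kdr the brightest, while Tek was well above background on no array. Lymphocyte genes were higher in 1 and lower in 1 of 6, with sums of 14.5 to 21.1, 9.28 to 15.4 and 16.9 to 20.9 and Cd79a the brightest, and Cd3e and Ms4a1 were above background on 0 newborn arrays. Macrophage genes were higher in 1 of 4, with sums of 110 to 331, 64.0 to 121 and 135 to 164 and Cd14 the brightest. The counts of lymphocyte and macrophage genes also lie near the shares of all probes. In old rats Acta1, Tnnt3, Myl1 and Myog of muscle, Hemgn of red cells, Sp7 of bone and Ms4a1 of lymphocytes were above background on 0 of 8 arrays, as were Epb42 of red cells and Cdh5 and Pecam1 of endothelium in adult rats. The part of any of these cells in the levels of the mitotic genes was not tested.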

How the data were processed

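The 35 arrays, from 27 rats, are Agilent whole rat genome arrays labelled with 1 dye. The authors' Feature Extraction software gave each spot as an intensity with the background subtracted, and its companion columns, also deposited, hold the intensity before subtraction and 0 or 1 flags of quality. A second deposited file by the authors holds ratio values made in GeneSpring: scaled to the median of the array, then to a constant for the probe, with negative values at 0.01. Of its 41012 lines, 40363 had 3 or more values to compare, and in 99.8% of these the ratio to the scanner values was 1 constant, after array offsets of up to 0.023 log2. The medians of the matrix differ between arrays, since each probe had its own divisor, and it served as an alternative only.

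Control spots were left out and repeated spots averaged without 890 outlier values. The log2 of intensity over the array median was taken, after raising quotients below 0.01 to that value. Sides of a rat were averaged, so a rat is the replicate. In the alternative fits with slide or scan day as a random block, each array was used singly, with no term for the rat. Well above background follows the software's flag, on 0.5 or more of the spots. A gene is represented by its probe with the highest mean level, and its other probes are given where they differ in direction or in call, with some that differ in size. Levels were compared with limma 3.58.1 (lmFit and eBayes) in R 4.3.3, in a fit over 4 litters, adult and old rats, with newborn as the mean of the litters. The test was two-sided and p values were adjusted by Benjamini-Hochberg over all probes with a value (up to 41012), with no filter. The fit was tested on simulated data. Tables were made with Python 3.11.15 and pandas 2.3.3. "At least" marks a fold against a group with the probe well above background on no array, computed with each array's lowest signal well above background in its place. The number of arrays limits the precision.

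Values per rat are given for the gene with the brightest probe in newborn rats in each step, the 2 largest and 2 smallest changes against adult rats, every gene not called higher in newborn rats, the 6 largest called changes between adult and old rats, and Mki67, Top2a, Cdk1, Ccnb1 and Aurkb. In the other lists the 3 largest changes and the smallest are named. The genes, steps and lists were chosen with earlier results of these data known. The alternatives tried were other scalings, a background correction (normexp, always with quantile normalization), floors, filters, probe choices, tests, replicates, blocks for slide and scan day, the matrix, and each rat left out. The fits with genes found by accession or older symbol, those among L2, L3 and L4, the alternatives for Cdc25b and the counts without genes at background were chosen after seeing the data.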

Additional observations from a re-analysis of the deposited data

Results flagged for a closer look

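In groups of 4 or 5 rats, a rat was marked when its gap to the nearest of the others was large for the range of its group. Among 114 groups checked 6 such rats were found, and chance would mark about 1 in 20 groups. Cenpe was -6.64 in rat 24 of L2 against -3.31 to -2.44 in the other pups of that litter, a signal at the floor of a probe that is not above background. Aurkb was 6.70 in rat 31 of L4 against 5.77 to 6.03. Kif2c was 4.44 in rat 10 of L1 against 3.97 to 4.03. Prc1 was -1.09 in old rat 20 against -1.84 to -1.76. Cdc25b, checked after its values were seen, was 3.86 in old rat 18 against 3.06 to 3.1, and its call between adult and old rats was lost without that rat. It was 3.67 in rat 32 of L4 against 4.26 to 4.50.

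The newborn level relative to adult rats differed among the 4 litters in 5 of 31 genes by the test of that difference, against 21.6% of all probes. The adjusted p values were 0.00118 for Melk, 0.00204 for Ttk, 0.00289 for Cdca8, 0.00431 for Pttg1 and 0.00485 for Birc5. Fewer genes were called with slide or with scan day as a random block. All 5 were lowest in L1, the only litter on its slide and scan day, so that litter and scan day cannot be told apart.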

How the results depend on the processing

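Over the settings tried, 25 to 34 genes were called higher in newborn than in adult rats and 24 to 34 higher than in old rats, where 34 includes the genes found by accession and older symbol, and 25 and 24 come from testing only probes above background in every group, which leaves fewer of the genes. The count higher in adult than in old rats was 14 to 20. With each rat left out in turn these counts were 28 to 29, 28 to 29 and 14 to 17, and the count of L1 against old rats was 27 each time. The count lower in adult rats, 3, was 1 with quantile normalization and 1 to 3 with a rat left out.

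The count of genes that differ among litters, 5, was 1 with slide as a random block, 1 with scan day as a random block, 3 with only the litters in the fit and 2 with the methods' test after Benjamini-Hochberg adjustment. It was 0 (limma) among L2, L3 and L4 in each of the 3 fits chosen after seeing the data. There, 2 genes, 3 with scan day as a fixed block and 2 within a scan day had an unadjusted p under 0.05. The shares of all probes at that p were 25.5%, 29.4% and 24.4%. The count among the 4 litters was 1 to 6 with a rat left out. The cause was not tested.

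The alternatives for single genes were run for those with values per rat, and their changes turned in sign in few cases. Aurkb between newborn and adult rats was -0.15 with quantile normalization and -0.0812 with normexp added to it, and Ndc80 was -0.0012 with normexp and quantile normalization together. Cenpe was -0.16 against old rats and -0.21 between adult and old rats with a floor at the lowest signal well above background, which replaces nearly every value of that probe. Ndc80 between adult and old rats ranged from -0.0246 to 0.15 with a rat left out.

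Single genes rest on 1 probe each, most with 1 spot per array. Cenpe, Nusap1 and, in old rats, Cdc25c, Kif11, Cdca8 and Cenpa are limited by signal over background. Adult rats share no scan day and no software release with another age, and the old rats share their scan day with L1 only.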
